A study of Homo sapiens with 15 samples.

Results

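Cyclin E1 overproduction for 48 h was compared with no induction in RPE1-hTERT cells, a telomerase-immortalized cell line established from human retinal pigment epithelium. Of 15 RNA-seq libraries in the series, 6 enter this comparison, 3 acute and 3 control. Acute cells received 20 ng/ml doxycycline for 48 h, labelled as 2 d, and control cells received none. All of these cells carry pINDUCER20-CCNE1, a viral construct that expresses a cyclin E1 cDNA when doxycycline is present, and by the study's methods the line was grown out from single cells. No library of doxycycline-treated cells without the cyclin cDNA is among the 15, so effects of cyclin E1 and of doxycycline itself cannot be told apart. The other 9 libraries come from later stages of the same time course and serve here to estimate the spread of each gene. They also enter the mean level that decides which genes were tested, and the reference levels for rescaling and GC correction. The study describes its replicates as independent.

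Cyclin E1 binds and activates the kinase CDK2, and the pair drives cells out of G1 and into S phase. E2F transcription factors, held back by RB family proteins until CDKs phosphorylate these, switch on the G1/S genes, among them cyclin E and the MCM helicase subunits that are loaded onto replication origins in G1. When too much cyclin E pushes cells into S phase early, origins can be left unlicensed and forks can stall, and the checkpoint kinases ATR and ATM respond. The transcription factor p53 then raises its targets, of which CDKN1A encodes p21, an inhibitor of cyclin-CDK complexes.

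Values are in TPM, a gene's share of all transcripts after correction for its length, in which every library sums to the same total, so sequencing depth cannot be read from them. Differences are log2 fold changes of TPM + 1, acute minus control, with standard errors (SE) from limma fitted to the 10196 genes that averaged 5 TPM or more. Adjusted p-values are limma's with the Benjamini-Hochberg correction over all 10196 genes, and a gene is called at an adjusted p under 0.01. At that threshold 5 genes (0.049%) were higher and 0 (0%) lower in acute cells. By unadjusted p under 0.05, acute cells had 767 genes higher (7.52%) and 170 lower (1.67%). All 3 acute libraries lay above all 3 control libraries for 1002 genes (9.83%) and below them for 240 (2.35%), and the mean was higher in acute cells for 6775 genes (66.4%). These shares are the background for the gene lists below.

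The libraries differed in composition in ways that run with the comparison. Across 10185 genes with a known sequence, the log2 fold change had a Spearman correlation of -0.52 with GC content, a description in which all points share the same 6 libraries. In the 2547 genes with the lowest GC content, up to 41.0%, the median log2 fold change was 0.15, with 337 genes higher by unadjusted p under 0.05 and 4 lower, and in the 2546 with the highest, from 54.9%, it was -0.052, with 38 higher and 109 lower. The entries that resemble 45S ribosomal RNA held 12.6%, 13.2% and 7.53% of TPM in acute libraries 1 to 3, against 15.0%, 15.0% and 12.6% in control libraries 1 to 3. Because TPM is a share, this moves every other gene. The median log2 fold change over all tested genes was 0.063 as deposited and -0.0028 after median-of-ratios scaling, which left 363 genes higher and 455 lower by the same unadjusted p. The part of composition in any single difference was not tested, and the lists are therefore also given after GC correction and after rescaling. Of 13 pigment epithelium markers, 4 reached 1 TPM and 2 were listed at 0. Their summed level was 40.7 to 42.8 TPM in acute and 34.8 to 39.8 TPM in control libraries. Markers of other cell types were present too. The 10 mesenchymal or fibroblast markers summed to 6244 to 7233 TPM (acute) and 6721 to 6965 TPM (control), and 6 reached 1 TPM. The 6 simple epithelial markers summed to 766 to 981 TPM (acute) and 875 to 985 TPM (control), and 3 reached 1 TPM. The 5 neuronal markers summed to 39.3 to 49.0 TPM (acute) and 32.3 to 43.0 TPM (control), and 2 reached 1 TPM. Of 6 immune markers only CD68 reached 1 TPM, and of 6 endothelial markers none did.

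CCNE1, the induced gene, was present at 163, 154 and 136 TPM in acute cells, against 7.09, 6.27 and 7.88 TPM in control cells. Every acute library was far above every control library, and the mean was 21.3-fold higher, 151 ± 14 TPM in acute and 7.08 ± 0.804 TPM in control cells (SD, n = 3 each). The log2 fold change was 4.24 ± 0.11 (SE, adjusted p = 1.44e-13). Transcripts of the cDNA and of the endogenous gene are counted together in this value. An exact 2-sided permutation test of 3 against 3 libraries gave p = 0.1, below which such a design cannot go. CCNE2, an E2F target for the other E-type cyclin, stood at 19.2, 15.6 and 10.3 TPM in acute cells, against 19.8, 23.4 and 19.8 TPM in control cells. All 3 acute values were below the controls, the first only narrowly, and the difference of -0.49 ± 0.22 did not pass the test (adjusted p = 0.54).

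CDKN1A was the other called gene that control cells expressed above the filter of 5 TPM. It reached 139, 139 and 163 TPM in acute cells, against 79.9, 83.5 and 70.5 TPM in control cells. The groups did not overlap and the mean was 1.89-fold higher in acute cells. The log2 fold change was 0.91 ± 0.10 (adjusted p = 2.09e-04), and the exact 2-sided permutation test again gave its smallest p of 0.1. The call held in every fit tried, with each library left out and under every scaling.

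**Figure D1:**
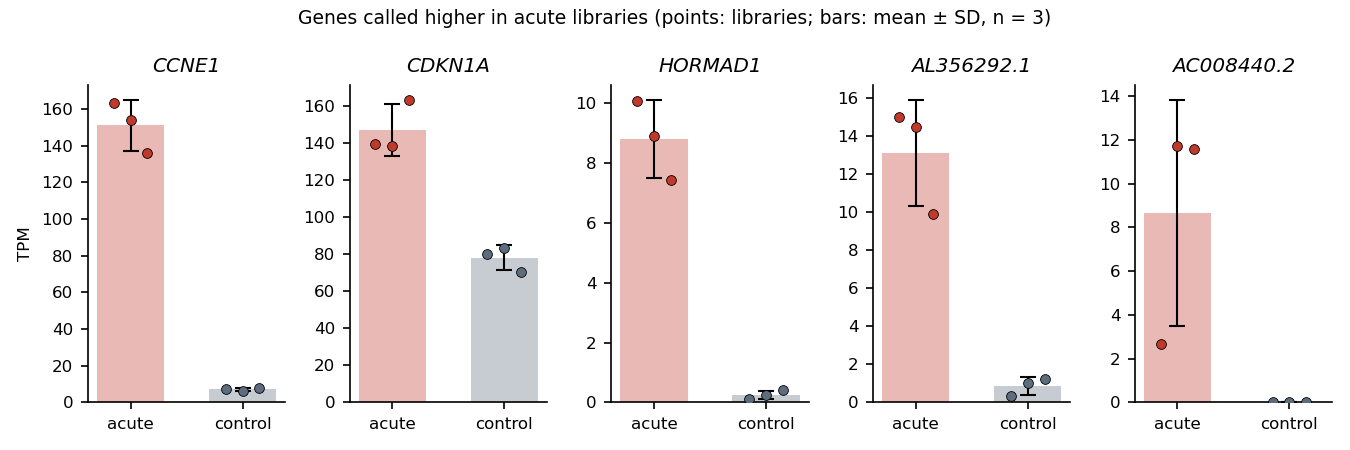
TPM of the 5 genes called at an adjusted p under 0.01, in acute cells (left in each panel) and control cells (right), with a separate linear axis from 0 for each gene. Points are libraries, bars are means and error bars are SD (n = 3). CCNE1 and CDKN1A stood far above 0 in both groups, whereas the other 3 genes were near or at 0 in control cells, and AC008440.2 was low in acute library 1.

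The remaining called genes were near 0 in control cells. They passed the filter, a mean over the 15 libraries, only through libraries in which they were high, later stages included. That mean was 6.68 TPM for HORMAD1, 10.1 TPM for AL356292.1 and 7.59 TPM for AC008440.2. All 3 left the test when at least 5 TPM was required in each of the 6 libraries. HORMAD1 encodes a HORMA-domain protein of meiotic chromosomes that is normally expressed in germ cells. It stood at 10.1, 8.91 and 7.44 TPM in acute cells, against 0.111, 0.234 and 0.401 TPM in control cells, a log2 fold change of 2.97 ± 0.32 (adjusted p = 2.09e-04). The processed pseudogene AL356292.1 was at 15.0, 14.5 and 9.91 TPM in acute cells, against 0.333, 1.01 and 1.242 TPM in control cells, with a log2 fold change of 2.94 ± 0.23 (adjusted p = 2.71e-06). Both were therefore low but present in every acute library. The lncRNA AC008440.2 was listed at 2.67, 11.7 and 11.6 TPM in acute cells and at 0 in all 3 control libraries (adjusted p = 0.0017), so no fold change is given. It lies antisense inside MYADM on chromosome 19, and the sources used here do not say whether counting used strand. MYADM was at 49.5, 40.7 and 46.2 TPM in acute cells, against 55.1, 43.2 and 40.0 TPM in control cells, values that overlap. The call of AC008440.2 was lost with a pseudocount of 5 (adjusted p = 0.073), with no filter (0.049) and in 5 of 6 fits that left out a library, and that of HORMAD1 with a pseudocount of 5 (0.022) and with no filter (0.011).

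HORMAD1 and AL356292.1 are neighbours on chromosome 1, at chr1:150698060-150720895 on the minus strand and chr1:150780272-150780644 on the plus strand (hg38). Where in the genome the cyclin E1 construct sits is not stated by the labels or methods, and its part in the values of this interval was not tested. CTSS, which encodes the lysosomal protease cathepsin S, lies between them, 9184 bp from HORMAD1. It was at 9.93, 7.68 and 5.56 TPM in acute cells, against 3.21, 1.87 and 1.55 TPM in control cells, so that the groups did not overlap. Its log2 fold change of 1.45 ± 0.28 missed the threshold (adjusted p = 0.086). Its mean over the 15 libraries was 5.13 TPM, so CTSS too passed the filter only through libraries in which it was high. ARNT, the dimer partner of the hypoxia-inducible factors, lies 88818 bp away and was at 30.3, 28.8 and 30.9 TPM in acute cells, against 16.2, 14.8 and 22.3 TPM in control cells. Its log2 fold change was 0.74 ± 0.15 (adjusted p = 0.091), again without overlap between the groups. On the other side, GOLPH3L, which encodes a Golgi protein, has its start 906 bp from the end of HORMAD1, both on the minus strand. It was at 21.4, 16.1 and 14.6 TPM in acute cells, against 12.9, 12.5 and 11.5 TPM in control cells (0.45 ± 0.15, adjusted p = 0.41). The pseudogene UBE2D3P3, under the filter, was at 5.11, 3.19 and 1.13 TPM in acute and 0.514, 0.517 and 0.319 TPM in control cells. Not every gene of the interval was higher. CTSK, which encodes cathepsin K and lies between AL356292.1 and ARNT, was at 84.5, 78.8 and 88.5 TPM in acute cells, against 87.2, 83.9 and 82.2 TPM in control cells, and MCL1, SETDB1 and the other tested genes within 500000 bp had overlapping groups, except MLLT11, which was at 14.7, 14.3 and 15.3 TPM in acute and 16.2, 16.3 and 16.3 TPM in control cells.

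**Figure D2:**
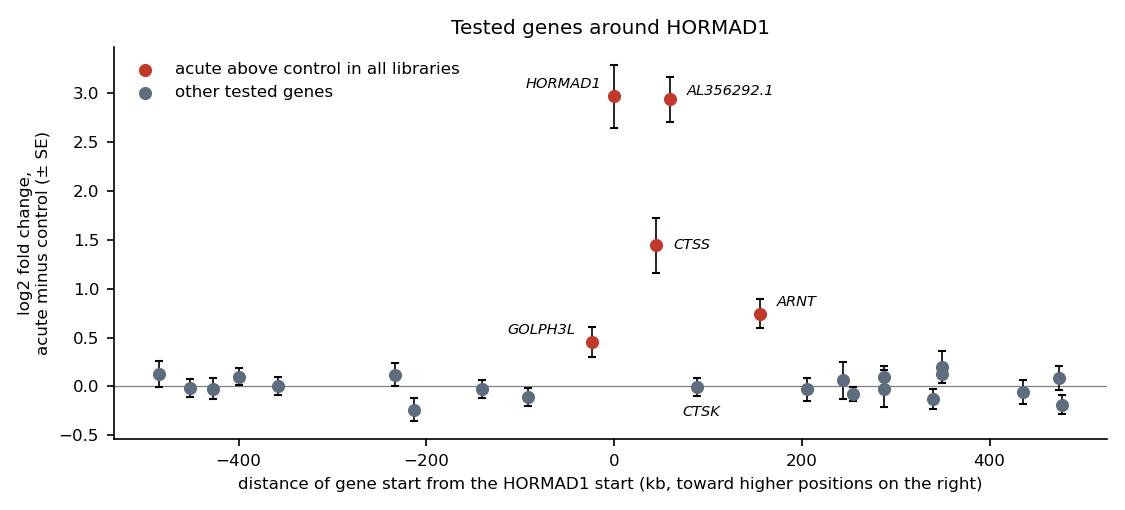
Log2 fold change (acute minus control, ± SE) of each tested gene within 500000 bp of HORMAD1, against the distance in kb of its annotated start from the HORMAD1 start. Red points are genes whose 3 acute libraries all exceed the 3 control libraries, and these (GOLPH3L, HORMAD1, CTSS, AL356292.1 and ARNT) lie side by side, with CTSK among them at -0.0097.

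Targets of p53 stood higher well beyond CDKN1A. A list of 83 targets that act in arrest, repair and feedback had 60 tested members, of which 55 had a higher mean in acute cells (91.7%, against 66.4% of all tested genes). At an unadjusted p under 0.05, 26 members were higher (43.3%, against 7.52%) and 1 was lower, and 25 had groups that did not overlap with acute above (41.7%, against 9.83%). Only CDKN1A was called at an adjusted p under 0.01. The median log2 fold change was 0.21, against 0.063 over all tested genes, and was 0.21 after GC correction and 0.15 after median-of-ratios scaling. The median GC content of the members, 45.6%, was near that of all tested genes, 46.9%. The list was written with results of these libraries known, so its counts are a description.

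The p53 feedback regulators were among the members that stood higher. MDM2, the ubiquitin ligase that degrades p53, was at 130, 104 and 108 TPM in acute cells, against 64.2, 67.9 and 92.3 TPM in control cells (0.61 ± 0.16, adjusted p = 0.27). Control library 3 came closest to the acute values without reaching them. PPM1D, a phosphatase that turns the damage response off, was at 7.60, 8.71 and 8.74 TPM in acute cells, against 6.01, 6.02 and 6.74 TPM in control cells (0.36 ± 0.12, adjusted p = 0.37). CCNG1, an early p53 target that encodes cyclin G1, was at 146, 146 and 152 TPM in acute and 97.9, 99.1 and 132 TPM in control cells (0.44 ± 0.13, adjusted p = 0.33), without overlap.

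Members that act in stress responses, metabolism and repair gave mixed values. SESN1, which encodes a sestrin that restrains mTORC1, was at 14.3, 13.99 and 12.8 TPM in acute cells, against 5.90, 7.78 and 9.15 TPM in control cells (0.79 ± 0.17, adjusted p = 0.11). FDXR, a mitochondrial ferredoxin reductase, was at 13.1, 13.2 and 14.01 TPM in acute and 8.32, 8.80 and 8.96 TPM in control cells (0.58 ± 0.11, adjusted p = 0.089). TP53INP1, a p53-induced regulator of stress and autophagy, was at 12.3, 10.1 and 10.8 TPM in acute and 5.99, 5.54 and 8.38 TPM in control cells (0.67 ± 0.18, adjusted p = 0.27). In each of these 3 genes the lowest acute library exceeded the highest control library. XPC, a damage sensor of nucleotide excision repair, had 35.7, 33.1 and 34.1 TPM in acute cells, against 18.9, 27.5 and 25.2 TPM in control cells. RRM2B, the p53-inducible ribonucleotide reductase subunit, had 29.2, 29.7 and 25.1 TPM in acute cells, against 14.6, 16.6 and 26.5 TPM in control cells, with control library 3 inside the acute range. TIGAR, ZMAT3, TRIM22, RPS27L and TRIML2 were also higher at an unadjusted p under 0.05, with log2 fold changes of 0.40 to 0.56. PHLDA3, an inhibitor of AKT, was at 38.8, 40.1 and 48.4 TPM in acute and 37.6, 45.4 and 42.2 TPM in control cells, and TM7SF3, a membrane protein, was at 148, 146 and 163 TPM in acute and 146, 151 and 164 TPM in control cells, both with overlap. CSF1, a macrophage growth factor, was the member that was lower at an unadjusted p under 0.05.

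Below the filter, 22 further members of this list had values and no test, of which 9 had all acute libraries above all control libraries and 0 had the opposite (40.9%, against 2.81% of all 50362 entries below the filter, many of them at 0). Among those with a mean of at least 1 TPM it was 6 of 8 members, against 339 of 3744 entries (9.05%). BTG2, an antiproliferative transcriptional cofactor, was at 5.79, 5.67 and 6.96 TPM in acute cells, against 2.87, 2.78 and 3.06 TPM in control cells. PTCHD4, a patched-domain protein, was at 1.55, 1.53 and 1.71 TPM in acute cells, against 0.498, 0.455 and 0.389 TPM in control cells. The acute values of both genes were well clear of the controls, and BTG2 was called when the filter was lowered to a mean of 1 TPM. GDF15, a secreted stress cytokine, stayed low at 0.304, 0.376 and 0.400 TPM in acute and 0.378, 0.175 and 0.470 TPM in control cells.

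Of 19 p53 targets that act in cell death, 13 were tested, and for 5 the acute libraries lay above the controls (38.5%, against 9.83% of all tested genes). The median log2 fold change was 0.26, against 0.063 over all tested genes. By unadjusted p under 0.05 6 were higher (46.2%, against 7.52%) and 0 lower. These 6 encode receptors of death ligands or act in the mitochondrial or nuclease steps of apoptosis. EDA2R, a receptor of the TNF receptor family, was at 9.02, 8.59 and 8.29 TPM in acute cells, against 4.53, 4.67 and 5.44 TPM in control cells (0.71 ± 0.13, adjusted p = 0.040). FAS, the CD95 death receptor, was at 40.7, 35.1 and 32.2 TPM in acute and 18.3, 19.9 and 24.8 TPM in control cells (0.75 ± 0.15, adjusted p = 0.091). BAX, which permeabilizes mitochondria, was at 190, 196 and 229 TPM in acute and 164, 166 and 140 TPM in control cells (0.39 ± 0.10, adjusted p = 0.27). The groups did not overlap for any of these 3 genes. The others were AEN, an apoptosis-enhancing nuclease, TNFRSF10B, the TRAIL receptor DR5, and TNFRSF10D, a decoy TRAIL receptor. PMAIP1, which encodes NOXA, was at 18.2, 14.5 and 13.9 TPM in acute and 14.3, 14.2 and 15.0 TPM in control cells, and BID was at 61.1, 66.7 and 81.7 TPM in acute and 79.8, 82.6 and 73.4 TPM in control cells. Both overlapped. Under the filter, BBC3, which encodes PUMA, was at 3.99, 4.65 and 3.44 TPM in acute and 2.44, 2.50 and 2.40 TPM in control cells, whereas PIDD1 was at 1.83, 1.85 and 1.75 TPM in acute and 2.65, 2.64 and 2.905 TPM in control cells.

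Of 12 tested genes of the cyclin E-CDK2 module, 5 were higher by unadjusted p under 0.05 (41.7%, against 7.52% of all tested genes) and 1 was lower, and for 6 of the 12 the acute libraries lay above the controls, against 9.83% of all tested genes. The 5 include the called genes CCNE1, whose rise the construct fixed by design, and CDKN1A, also counted among the p53 targets. The others were CDKN1B, CCNA2 and CKS2, a CDK-binding subunit, and the lower member was CCNE2. CKS2 is also in the G2/M list and CCNE2 in the G1/S list. The number higher was 2 without control library 1, and 3 without control library 2, without acute library 1 or after median-of-ratios scaling. CDKN1B, which encodes the CDK2 inhibitor p27, was at 106, 97.8 and 108 TPM in acute cells, against 78.9, 85.1 and 92.4 TPM in control cells (0.28 ± 0.10, adjusted p = 0.47). CCNA2, the S-phase and G2 cyclin of CDK2, was at 98.8, 93.3 and 85.8 TPM in acute and 75.5, 75.5 and 83.0 TPM in control cells (0.24 ± 0.11, adjusted p = 0.54). Neither pair of groups overlapped. CDK2 was at 54.3, 60.00 and 57.1 TPM in acute and 66.2, 61.1 and 57.4 TPM in control cells, and the activating phosphatase CDC25A and the F-box protein SKP2, which targets p27, had overlapping groups too, as did FBXW7, whose ligase degrades cyclin E. Of 8 tested members of the cyclin D and INK4 group, 0 were higher at an unadjusted p under 0.05. CDKN2A was lower, 1 of 8 (12.5%, against 1.67% of all tested genes). The number lower was 0 after GC correction, with a replicate block, in the 6 libraries alone, and without control library 1 or 2 or acute library 1 or 2. It was 2 after median-of-ratios scaling and without control library 3 or acute library 3. CDKN2A encodes p16 and ARF and was at 104, 112 and 135 TPM in acute cells, against 150, 135 and 128 TPM in control cells, with overlap.

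Genes of G2 and mitosis stood higher as a list. Of 55 tested members 54 had a higher mean in acute cells (98.2%, against 66.4% of all tested genes). By unadjusted p under 0.05, 33 were higher (60.0%, against 7.52%) and 0 were lower. For 30 all acute libraries lay above all control libraries (54.5%, against 9.83%). By limma 0 of the 55 passed the adjusted threshold. The median log2 fold change was 0.29, against 0.063 over all tested genes. It was 0.24, against 0.057, after GC correction and 0.22, against -0.0028, after median-of-ratios scaling. The members are poorer in GC than the average tested gene (median 42.3%, against 46.9%). For 34 of the 55 members acute library 1 was the highest of the acute libraries, and without it 17 members were higher at an unadjusted p under 0.05, with a median of 0.22. Acute library 1 was also the library whose deviations ran most strongly against GC content, with a Spearman correlation of -0.44 across genes, against 0.036 and 0.52 in acute libraries 2 and 3 and 0.69, 0.58 and -0.14 in control libraries 1 to 3.

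NEK2, a kinase that separates centrosomes, was at 60.1, 53.5 and 51.4 TPM in acute cells, against 37.7, 36.2 and 40.9 TPM in control cells (0.51 ± 0.10, adjusted p = 0.089). CENPF, a kinetochore protein, was at 96.0, 70.7 and 69.0 TPM in acute and 54.8, 51.7 and 54.2 TPM in control cells (0.53 ± 0.11, adjusted p = 0.11). TOP2A, the topoisomerase that untangles sister chromatids, was at 351, 240 and 223 TPM in acute and 184, 158 and 202 TPM in control cells (0.56 ± 0.14, adjusted p = 0.25). In all 3, acute library 1 was the highest and the other acute libraries still exceeded the controls. UBE2C, the ubiquitin-conjugating enzyme of the anaphase-promoting complex, was at 258, 260 and 270 TPM in acute and 203, 200 and 167 TPM in control cells (0.47 ± 0.12, adjusted p = 0.26). CCNB2, the mitotic cyclin B2, was at 110, 107 and 112 TPM in acute and 88.6, 89.0 and 88.5 TPM in control cells (0.30 ± 0.09, adjusted p = 0.33). CDC20, the mitotic activator of the anaphase-promoting complex, was at 157, 181 and 186 TPM in acute and 144, 136 and 119 TPM in control cells (0.39 ± 0.13, adjusted p = 0.39). For these 3, acute library 1 was not the highest, and the groups did not overlap. FOXM1, the transcription factor of the mitotic genes, was at 166, 179 and 175 TPM in acute and 174, 163 and 142 TPM in control cells, and CENPE, a kinetochore motor, was the member with a lower mean, at 21.2, 19.2 and 17.0 TPM in acute and 15.9, 23.1 and 21.8 TPM in control cells.

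Many G2/M promoters carry a cell cycle homology region (CHR), the element through which the MuvB core complex binds, often beside CCAAT boxes bound by NF-Y. RefSeq promoters on GRCh38.p14, from 250 bases before to 50 after the start, were found for 46 of the 55 tested members and for 8176 of all 10196 tested genes. The CHR letters TTTGAA occurred on either strand in 31 of the 46 (67.4%), against 770 of the 8176 (9.42%), and occurred together with CCAAT in 25 of the 46 (54.3%), against 4.18%. Among the genes higher in acute cells at an unadjusted p under 0.05, 111 of 614 promoters held TTTGAA (18.1%), and among those lower 6 of 136 (4.41%). Of 47 promoters of p53 arrest and feedback targets 1 held it (2.13%). A match is a description of the letters and not of a bound site. The 120 bases before the start of 4 members are shown because they display the arrangement, 5′ to 3′ on the strand of the gene, with TTTGAA and CCAAT or their reverse complements in capitals. KIF23, listed as AC027237.1 in the table, is a mitotic kinesin, CKAP2L a spindle protein and CKAP5 a microtubule polymerase. The positions are chr2:112764610-112764729 (minus strand) for CKAP2L, chr15:69414229-69414348 (plus) for KIF23, chr11:46846281-46846400 (minus) for CKAP5 and chr15:59105026-59105145 (plus) for CCNB2.
CKAP2L: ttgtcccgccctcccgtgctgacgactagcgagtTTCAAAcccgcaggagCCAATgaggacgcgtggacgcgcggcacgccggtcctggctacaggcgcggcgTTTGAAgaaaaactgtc
KIF23: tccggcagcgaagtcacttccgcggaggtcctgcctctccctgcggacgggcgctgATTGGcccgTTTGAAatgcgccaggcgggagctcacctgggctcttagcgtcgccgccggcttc
CKAP5: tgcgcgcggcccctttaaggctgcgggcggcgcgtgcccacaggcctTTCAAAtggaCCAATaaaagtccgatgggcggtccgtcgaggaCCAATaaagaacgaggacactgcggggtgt
CCNB2: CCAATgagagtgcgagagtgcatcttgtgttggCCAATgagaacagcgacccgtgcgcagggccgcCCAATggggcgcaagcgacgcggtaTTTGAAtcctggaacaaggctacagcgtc
KIF23 was at 105, 93.3 and 87.0 TPM in acute cells, against 65.7, 67.7 and 80.4 TPM in control cells (0.41 ± 0.11, adjusted p = 0.25), CKAP2L at 64.3, 52.6 and 42.6 TPM in acute and 38.1, 32.8 and 35.8 TPM in control cells (0.55 ± 0.13, adjusted p = 0.21), and CKAP5 at 186, 145 and 145 TPM in acute and 128, 124 and 122 TPM in control cells (0.34 ± 0.10, adjusted p = 0.30).

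**Figure D3:**
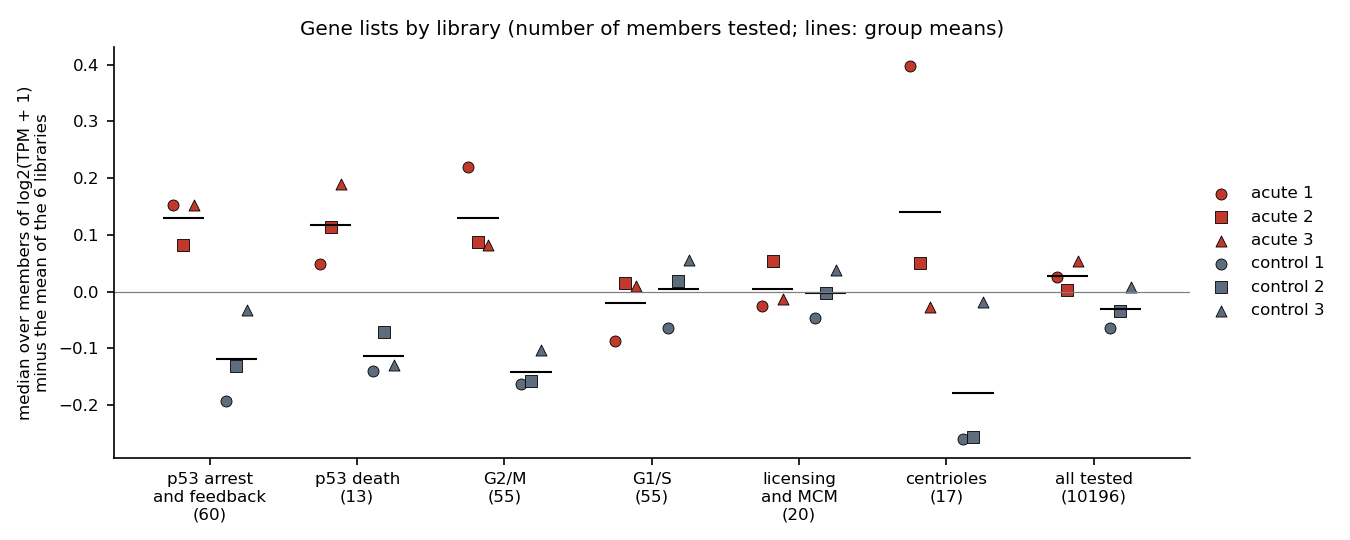
Level of each gene list by library, as the median over tested members of log2(TPM + 1) minus the member's mean over the 6 libraries, with acute cells (red) left of control cells (grey). Lines are group means, symbols mark library numbers and the number of members is in brackets. Among the lists drawn, the 2 p53 lists and the G2/M list separate the groups, and G1/S and licensing genes do not. The centriole list in acute library 1, at 0.40, stands apart from acute libraries 2 and 3 at 0.051 and -0.027. Some lists not drawn also separate the groups, such as recombination genes (lowest acute library 0.031, highest control library -0.034).

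The E2F-induced G1/S genes did not follow. Of 55 tested members, which include CCNE1, 26 had a higher mean in acute cells (47.3%, against 66.4% of all tested genes), 2 were higher at an unadjusted p under 0.05 (CCNE1 and BRCA1) and 7 were lower (12.7%, against 1.67%). The number lower was 2 without acute library 1, 3 without control library 2, 9 without acute library 3 and 11 after median-of-ratios scaling. The median log2 fold change was -0.018, against 0.063 over all tested genes, and -0.084, against -0.0028, after median-of-ratios scaling. CDC6, the ATPase that loads MCM helicases, was at 52.99, 59.9 and 61.3 TPM in acute cells, against 65.4, 76.4 and 76.9 TPM in control cells (-0.32 ± 0.11, adjusted p = 0.42). UNG, the uracil-DNA glycosylase, was at 32.0, 44.9 and 47.2 TPM in acute and 49.3, 56.2 and 52.2 TPM in control cells (-0.36 ± 0.12, adjusted p = 0.40). E2F1, an activator E2F and itself a target, was at 13.2, 18.4 and 17.4 TPM in acute and 20.2, 19.9 and 19.4 TPM in control cells (-0.28 ± 0.12, adjusted p = 0.53). For all 3 the acute libraries lay below the controls, and none passed the test. SLBP, which binds the stem-loop of histone mRNAs, MCM2, MCM6 and CCNE2 were the other members lower at an unadjusted p under 0.05. After GC correction 7 members were again lower by that p. E2F1 (-0.16) and MCM2 (-0.20) were not among them, and WDR76 and MSH6 were. RRM2, TYMS and PCNA, which supply nucleotides or clamp polymerases, had overlapping groups. Of the RB family, RBL2, which encodes p130, was at 26.5, 25.5 and 21.7 TPM in acute and 17.5, 17.4 and 21.6 TPM in control cells (0.37 ± 0.13, adjusted p = 0.45), and RBL1, which encodes p107, was at 18.3, 14.8 and 15.5 TPM in acute and 12.7, 11.5 and 13.8 TPM in control cells.

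Promoters of the G1/S members held the E2F letters TTTCGCGC or TTTGGCGC on either strand in 14 of 46 cases (30.4%), against 192 of 8176 (2.35%) for all tested genes, and TTTGAA in 1 of 46. The 120 bases before the start of 2 members that stood lower are shown with the E2F letters in capitals, for MCM6 at chr2:135876444-135876563 and for E2F1 at chr20:33686386-33686505, both on the minus strand of GRCh38.p14. In MCM6 the capitals join overlapping matches on the 2 strands.
MCM6: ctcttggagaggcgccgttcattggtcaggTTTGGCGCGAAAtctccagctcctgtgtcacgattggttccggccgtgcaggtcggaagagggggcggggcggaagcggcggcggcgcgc
E2F1: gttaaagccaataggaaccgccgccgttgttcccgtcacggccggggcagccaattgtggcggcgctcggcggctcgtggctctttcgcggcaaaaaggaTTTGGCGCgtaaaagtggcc
MCM6 was at 44.1, 47.1 and 46.6 TPM in acute cells, against 52.4, 54.8 and 61.6 TPM in control cells (-0.28 ± 0.11, adjusted p = 0.48).

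**Figure D4:**
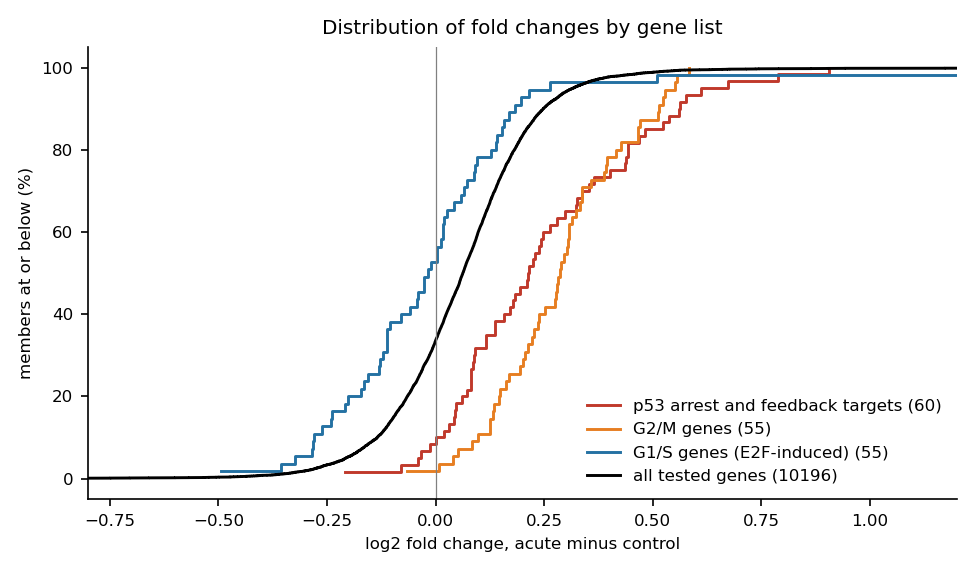
Cumulative share of genes (%) against log2 fold change, acute minus control, for p53 arrest and feedback targets, G2/M genes, G1/S genes and all tested genes, with the number of genes in brackets. The curves of the p53 list (median 0.21) and the G2/M list (median 0.29) lie right of the curve of all genes (median 0.063) and that of the G1/S list (median -0.018) left of it. CCNE1, at 4.24, lies beyond the axis.

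Origin licensing factors gave equal counts in both directions, against unequal shares over all tested genes, and these counts rested on acute library 1. Of 20 tested members of the origin recognition complex, the MCM helicase and its loaders, 3 were higher at an unadjusted p under 0.05 (ORC4, ORC5 and ORC6). They were 15.0%, against 7.52% of all tested genes. Another 3 were lower (CDC6, MCM2 and MCM6), also 15.0%, against 1.67% of all. All 3 are also counted among the lower G1/S genes. Acute libraries lay above the controls for 15.0% and below them for 20.0%, against 9.83% and 2.35% of all. No member was called. MCM2 was at 64.7, 69.9 and 77.1 TPM in acute cells, against 92.0, 88.2 and 77.5 TPM in control cells (-0.28 ± 0.13, adjusted p = 0.54), and ORC6 was at 60.02, 56.1 and 54.5 TPM in acute and 40.2, 47.0 and 49.8 TPM in control cells (0.31 ± 0.12, adjusted p = 0.48). MCM4 and MCM7 had overlapping groups. Without acute library 1, 0 members were higher and 0 lower by that unadjusted p. The count of higher members was 0 without control library 1, 1 without control library 2, 0 after median-of-ratios scaling and 1 after GC correction, and that of lower members 4 after median-of-ratios scaling and 2 after GC correction. MCM5, a subunit of the same hexamer, was at 81.2, 91.6 and 97.7 TPM in acute and 108, 115 and 84.2 TPM in control cells (-0.17 ± 0.12, adjusted p = 0.66). CDT1, the licensing factor degraded in S phase, was at 15.2, 15.8 and 16.6 TPM in acute and 19.4, 18.4 and 14.4 TPM in control cells (-0.11 ± 0.16, adjusted p = 0.81), a sign that reversed with GC correction. For both, control library 3 lay within or below the acute values.

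No checkpoint gene was called. Of 20 tested members of the ATR-CHK1 branch, 2 were higher at an unadjusted p under 0.05 (10.0%, against 7.52% of all tested genes), and for 5 of the 20 the acute libraries lay above the controls, against 9.83% of all. The 2 were RPA3, a subunit of the single-strand binding complex, and RAD17, a clamp loader. CHEK1, the gene for the CHK1 kinase, was at 64.0, 55.2 and 52.4 TPM in acute cells, against 47.6, 53.5 and 54.1 TPM in control cells, with overlap. Of 13 tested members of the ATM branch, 12 had a higher mean (92.3%, against 66.4%) and 4 had acute libraries above the controls (30.8%, against 9.83%). PPM1D, also among the p53 targets, ATM and MRE11 were higher at an unadjusted p under 0.05 (23.1%, against 7.52%). The number higher in the ATM branch was 1 after median-of-ratios scaling and 2 without acute library 1 or 2. In the ATR-CHK1 branch it was 0 after median-of-ratios scaling, 3 without control library 3 and 1 without control library 1 or 2 or acute library 1 or 3. ATM, the kinase that answers double-strand breaks, was at 35.6, 23.1 and 24.2 TPM in acute and 22.1, 20.7 and 20.3 TPM in control cells (0.35 ± 0.13, adjusted p = 0.48), with acute library 1 apart from the rest. H2AFX, which encodes the histone that ATM phosphorylates, was at 88.0, 92.6 and 112 TPM in acute and 134, 109 and 97.5 TPM in control cells (-0.22 ± 0.16, adjusted p = 0.66), with overlap.

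Of 31 tested homologous recombination and Fanconi anemia genes, 9 were higher at an unadjusted p under 0.05 (29.0%, against 7.52% of all tested genes). By that p 1 was lower, RAD54B (3.23%, against 1.67%). The median log2 fold change was 0.11, against 0.063 over all tested genes, and 0.044, against -0.0028, after median-of-ratios scaling. BRCA1, which starts repair by recombination and is also in the G1/S list, was at 37.4, 28.3 and 28.8 TPM in acute cells, against 22.5, 20.8 and 21.7 TPM in control cells (0.51 ± 0.11, adjusted p = 0.11). EME1, the partner of the nuclease MUS81, was at 13.3, 14.2 and 13.4 TPM in acute and 9.62, 11.1 and 9.04 TPM in control cells (0.42 ± 0.10, adjusted p = 0.21). BRCA2, a mediator of strand exchange in recombination, was at 6.10, 6.33 and 6.81 TPM in acute and 4.38, 3.62 and 4.42 TPM in control cells (0.53 ± 0.15, adjusted p = 0.28). FANCD2, which is monoubiquitinated at crosslinks and stalled forks, was at 29.5, 28.5 and 21.7 TPM in acute and 17.6, 19.7 and 17.7 TPM in control cells (0.50 ± 0.17, adjusted p = 0.40). For these 4 genes the groups did not overlap. BRCA2 was under the filter of 5 TPM in every control library, so it passed through other libraries. PALB2, BLM, RAD51B, FANCB and FANCI made up the rest.

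The count of centriole and centrosome genes varied with the library left out. Of 17 tested members, 8 were higher at an unadjusted p under 0.05 (47.1%, against 7.52%), among them CEP135 and CENPJ, which build the centriole wall, and PLK4, the kinase that starts duplication. That number was 1 without acute library 1, 3 without control library 1, 3 without control library 2, and 4 after median-of-ratios scaling. PLK4 was at 49.1, 30.0 and 32.8 TPM in acute cells, against 23.8, 25.3 and 30.3 TPM in control cells, so that acute library 1 was high and acute library 2 lay inside the control range. TEDC1, a tubulin complex protein of centrioles, was the member lower at an unadjusted p under 0.05, at 13.1, 10.8 and 11.3 TPM in acute and 18.6, 16.6 and 14.2 TPM in control cells (-0.45 ± 0.14, adjusted p = 0.34). It was not past that threshold after GC correction.

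Over all tested genes, those with the smallest p after the 5 called were FAM72B, EDA2R, a p53 death target described above, OSBPL3, BATF3 and CTSS. CTSS passed the filter only through libraries in which it was high, as given above. FAM72B, which lies next to SRGAP2 copies on chromosome 1, was at 14.5, 12.3 and 12.5 TPM in acute cells, against 7.64, 6.37 and 7.39 TPM in control cells (0.79 ± 0.13, adjusted p = 0.016). Reads can be shared with its near-identical copies FAM72A and FAM72C, of which FAM72A had overlapping groups and FAM72C was at 11.01, 6.33 and 5.39 TPM in acute and 4.08, 4.97 and 5.20 TPM in control cells, so the values of these genes are uncertain. OSBPL3, an oxysterol-binding protein, was at 33.4, 30.3 and 29.8 TPM in acute and 20.3, 18.5 and 19.6 TPM in control cells (0.65 ± 0.12, adjusted p = 0.057). BATF3, an AP-1 family factor, was at 4.11, 5.03 and 5.83 TPM in acute and 9.48, 10.1 and 9.60 TPM in control cells (-0.85 ± 0.16, adjusted p = 0.069). Neither OSBPL3 nor BATF3 had overlapping groups. CCDC150, a coiled-coil gene, was at 9.82, 7.37 and 8.41 TPM in acute and 2.80, 4.65 and 4.61 TPM in control cells (0.94 ± 0.19, adjusted p = 0.091). Its control values all lay under the filter of 5 TPM, which it passed through libraries in which it was higher.

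The other largest positive log2 fold changes with an unadjusted p under 0.05 and separate groups were in short or noncoding entries. AL645608.5 was at 22.8, 21.0 and 31.1 TPM in acute cells, against 0, 19.0 and 9.93 TPM in control cells, SNORD3A, the U3 small nucleolar RNA, at 38.4, 6.90 and 18.1 TPM in acute and 2.70, 4.90 and 6.74 TPM in control cells, and AC027319.1 at 4.45, 5.54 and 7.41 TPM in acute and 3.86, 2.24 and 0 TPM in control cells. These values spread widely within each group, and AC027319.1 was under the filter of 5 TPM in every control library. The largest negative log2 fold changes of the same kind were -0.52 to -1.68. They were the pseudogenes LSM12P1 and TECRP1, AP000295.1, BATF3, C4orf48, AC239811.1, SMCO4, the lncRNA AC016888.1, PAQR4, a progestin and adipoQ receptor family member, and PSMG4, a proteasome assembly chaperone. PAQR4 was at 11.9, 13.04 and 12.8 TPM in acute and 20.9, 18.9 and 16.1 TPM in control cells (-0.52 ± 0.14, adjusted p = 0.26). LSM12P1 was at 8.96, 4.002 and 2.08 TPM in acute and 13.6, 12.4 and 25.1 TPM in control cells, with a spread of the same order as its values.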

How the data were processed

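Libraries had been prepared at the same time from total RNA with an mRNA kit. The authors quantified reads with Kallisto on hg38 and deposited TPM per gene. The deposited table also holds log2 fold changes and adjusted p-values that the authors obtained with DESeq2. These were not used, nor were 4 further sheets. The sources used here do not give the strand setting. Of 60603 entries, 45 duplicate pseudoautosomal ones were dropped, and positions, length and GC content (longest transcript) came from GENCODE release 44. Columns were assigned by the labels, and 0 were left without a sample.

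Values were analysed as log2(TPM + 1) in the 10196 genes that averaged 5 TPM or more over 15 libraries. limma 3.58.1 (R 4.3.3; eBayes, trend; 6.63 prior degrees of freedom) was fitted to 5 group means with no other term, 2-sided, with a Benjamini-Hochberg adjusted p under 0.01. TPM keeps no depth, so precision rests on the spread between libraries (median CV 9.60% in acute, 10.0% in control cells). CCNE1 and CDKN1A were also tested by exact permutation. In simulated data on 10091 genes for acute against control cells, the fit recovered 1 of 50 genes shifted by 0.25 (log2), 11 of 50 shifted by 0.5, 45 of 50 shifted by 1 and 48 of 50 shifted by 2, and called 0 unshifted genes. The simulated noise was independent between genes and held no shift in library composition, so these counts do not cover calls that such a shift could cause.

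The members and lists were chosen with earlier results of these data known, from general knowledge. Named genes are those called, the 10 largest positive and negative differences with separate groups and an unadjusted p under 0.05, the 10 smallest p, up to 4 members of each list by p, members that a sentence counts, MCM5, CDT1, ATM and H2AFX, neighbours of HORMAD1 within 500000 bp, and up to 5 genes each way under the filter. Others, such as MYADM, FAM72A, FAM72C and CXCL8, were added after their values were seen. Alternatives were pseudocounts of 0.1 and 5, other filters, median-of-ratios scaling, a loess on GC content (span 0.3), a replicate block, the 6 libraries alone, no trend, a threshold of 0.05, each library left out, and, added later, TPM without 8 entries of 45S-like RNA. Promoters came from RefSeq. Python 3.11.15, pandas 2.3.3, SciPy 1.17.1 and matplotlib 3.10.9 were used.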

Additional observations from a re-analysis of the deposited data

How the results depend on the processing

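The call of CCNE1 and CDKN1A held in all fits run. AC008440.2 and HORMAD1 lost theirs in some, as given beside them, and with AL356292.1, which kept its call wherever it was tested, they left the test with at least 5 TPM in each of the 6 libraries. So the number called was 3 with a pseudocount of 5, 2 with at least 5 TPM in each of the 6 libraries and 4 to 5 with a library left out. The labels share replicate numbers, but same-numbered acute and control libraries did not deviate together (Pearson correlation of -0.14, -0.08 and -0.39), and a fit with the replicate number as a block called 5 genes and left 789 genes higher and 169 lower by unadjusted p under 0.05. In the block fit 4 centriole genes were higher, and with the block and GC correction 5, with 1 licensing gene. The split at an unadjusted p under 0.05 moved most with scaling, to 363 higher and 455 lower with median-of-ratios factors, 407 and 417 without the 45S-like RNA (an alternative added after seeing the data), and 1778 and 707 with no filter. With a library left out it ranged over 398 to 1491 higher and 93 to 341 lower, the extremes of higher genes coming without control library 1 and without control library 3. It was 450 higher without acute library 1 and 478 without control library 2, and lower genes numbered 100 without acute library 2, 341 without acute library 3, 325 without control library 3 and 93 without control library 1. Median-of-ratios scaling moved list medians to 0.15 (p53 arrest), 0.19 (p53 death), 0.22 (G2/M), -0.084 (G1/S), -0.049 (licensing) and 0.044 (recombination), and leaving out 45S-like RNA gave -0.032 for licensing and 0.062 for recombination. Counts of members higher at an unadjusted p under 0.05 became 20 (G2/M), 0 (licensing) and 4 (centrioles) with median-of-ratios scaling, 21, 1 and 4 without 45S-like RNA, and 1 licensing and 5 centriole genes with GC correction. With a library left out, counts ranged over 17 to 32 for G2/M, 20 to 26 for p53 arrest, 5 to 7 for p53 death, 2 to 6 for G1/S, 6 to 8 for recombination, 0 to 4 for licensing and 1 to 10 for centrioles, and medians over 0.21 to 0.27 (p53 arrest), 0.14 to 0.28 (p53 death), 0.22 to 0.31 (G2/M), -0.046 to 0.032 (G1/S), -0.030 to 0.058 (licensing), 0.059 to 0.16 (recombination) and 0.18 to 0.37 (centrioles). Among 100 genes with a fold change given, CDT1 reversed to 0.042 with GC correction, with and without the block, PHLDA3 to -0.048 with median-of-ratios scaling and -0.031 without 45S-like RNA, and, with a library left out, CTSK ranged over -0.048 to 0.035 and PHLDA3 over -0.078 to 0.080. EDA2R and FAM72B were also called at an adjusted p under 0.05 and without the variance trend. The cause of these changes was not tested. TPM gives no depth, so no count test or detection limit was possible.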

Other observations

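Several stress and growth lists held no member past the test. Of 33 tested members of the MYC network, 39 cytosolic ribosomal protein genes, 17 NF-kB cytokine and feedback genes, 16 interferon-stimulated genes, 15 ERK feedback genes and 14 estrogen response genes, 0 were called by limma and 0 were past an unadjusted p of 0.05 in either direction. The NF-kB list had a higher mean in acute cells for 2 of its 17 members (11.8%, against 66.4% of all tested genes). After median-of-ratios scaling 2 of the 17 were lower at an unadjusted p under 0.05, without acute library 1 it was 3, without control library 1 it was 1 and without control library 3 it was 2. CXCL3, a neutrophil chemokine, was at 12.7, 7.49 and 7.33 TPM in acute and 16.1, 11.1 and 10.3 TPM in control cells, with overlap, and CXCL8 was at 488, 230 and 243 TPM in acute and 445, 252 and 282 TPM in control cells. In both, library 1 of each group was the highest. Of 19 tested members of the ER unfolded protein response, 1 was higher at an unadjusted p under 0.05 (5.26%, against 7.52% of all tested genes). By the same p 1 was lower (5.26%, against 1.67%). The higher was HSPA5, the chaperone BiP, at 305, 320 and 326 TPM in acute and 274, 285 and 296 TPM in control cells (0.15 ± 0.07, adjusted p = 0.54). The lower was SDF2L1, at 20.4, 16.9 and 18.8 TPM in acute and 27.4, 22.4 and 21.4 TPM in control cells (-0.33 ± 0.13, adjusted p = 0.50). After GC correction neither was past that unadjusted p, and MANF, PDIA4 and CALR were higher. SLC7A11, the cystine transporter, was the only member of the ATF4 and NRF2 lists that was higher at an unadjusted p under 0.05, at 18.8, 18.8 and 17.6 TPM in acute and 10.3, 13.6 and 17.3 TPM in control cells (0.42 ± 0.16, adjusted p = 0.49). It was 1 of 19 tested ATF4 members (5.26%) and 1 of 22 tested NRF2 members (4.55%), against 7.52% of all tested genes.

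Doxycycline is known to inhibit mitochondrial translation. The 13 tested mRNAs of mitochondrial DNA had a median log2 fold change of 0.15, against 0.063 over all tested genes. The mean was higher in acute cells for 12 (92.3%, against 66.4% of all tested genes). At an unadjusted p under 0.05, 1 was higher (7.69%, against 7.52%), and 0 after GC correction or median-of-ratios scaling. That member was MT-ATP8, at 1862, 1687 and 1666 TPM in acute and 1044, 1317 and 1849 TPM in control cells. Control library 3 lay among the acute libraries. Without it 10 of the 13 were higher at an unadjusted p under 0.05 (76.9%, against 14.6% of all tested genes). The median was then 0.37. Without any other single library 0 were higher by that p, with medians of 0.070 to 0.22. Of 23 nuclear genes for mitochondrial translation and proteostasis 1 was higher (4.35%, against 7.52%) and 0 were lower at an unadjusted p under 0.05.

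Among 14 tested integrin and adhesion genes 1 was higher at an unadjusted p under 0.05 (7.14%, against 7.52% of all tested genes). By the same p, 1 of 20 SRF target and contractile genes was higher (5.0%). Among 26 collagen and matrix genes 1 was higher and 1 lower (3.85% each). Of 12 senescence-associated genes 3 were higher (CDKN1A, HMGB1 and HMGB2) and 2 lower (IGFBP3 and CDKN2A). Both shares exceeded those of all tested genes, 7.52% higher and 1.67% lower. The number lower was 0 without acute library 1, control library 1 or control library 2. It was 1 without control library 3 or acute library 2, and 3 without acute library 3. These counts ignore the direction that each member takes in senescence, so a shift towards senescence was not tested. ITGA2, the collagen-binding integrin subunit, was at 41.2, 34.4 and 33.0 TPM in acute and 19.9, 21.6 and 26.2 TPM in control cells (0.66 ± 0.14, adjusted p = 0.11). ACTA2, smooth muscle actin, was at 30.8, 32.8 and 33.7 TPM in acute and 24.7, 23.0 and 21.5 TPM in control cells (0.48 ± 0.15, adjusted p = 0.37). HMGB1, a chromatin protein, was at 811, 721 and 712 TPM in acute and 556, 595 and 636 TPM in control cells (0.33 ± 0.09, adjusted p = 0.27). The groups did not overlap for any of these 3. COL7A1, an anchoring collagen, had a log2 fold change of 0.51 and LAMB3, a laminin chain, of -0.50 (adjusted p = 0.48 and 0.47). Among genes under the filter with separate groups and the largest differences in mean TPM were AL391069.1, at 4.72, 9.83 and 8.32 TPM in acute and 1.18, 2.50 and 0.645 TPM in control cells, and ASAH2, a neutral ceramidase, at 1.47, 0.361 and 2.19 TPM in acute and 4.02, 4.31 and 4.10 TPM in control cells.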
